A study of Rattus norvegicus with 18 samples.

Results

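Orlistat, a lipase inhibitor taken by mouth that is used against obesity, was the positive control of a study of plantain feeding in obese rats, and the account below sets the liver transcriptome of the orlistat rats against that of the untreated obese rats. The members were the libraries labelled as orlistat and as obese control, 6 of the 18 libraries of the study, and the genes with at least 1 FPKM (fragments per kilobase of gene, scaled to the size of the library) in at least 3 of the 18 libraries, 11945 of 33657. Every library was made from frozen liver of a male rat labelled as 18 weeks old. The 3 orlistat libraries came from obese rats fed orlistat, and the 3 obese control libraries from obese rats that received water. Obese rats fed plantain at a low, a medium or a high dose (3 libraries each) and healthy rats that received water (the normal control, 3 libraries) served as further points of comparison. The labels state neither a strain, nor a diet, nor the amount or duration of orlistat, and leave it unstated whether each library is a separate animal. The p-values therefore measure only how much the libraries of a group vary, and part of that may be technical.

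Orlistat blocks the pancreatic and gastric lipases that split dietary triglycerides, so that part of the fat in a meal leaves the body undigested. The liver meets the absorbed nutrients first, turns cholesterol into bile acids, builds and burns fatty acids, secretes most plasma proteins and converts amino nitrogen to urea. Several of these programmes have dedicated transcriptional sensors, such as the sterol-sensing SREBP2, the lipid-sensing PPARalpha and the ATF6 and XBP1 branches of the unfolded protein response, which act when proteins misfold in the endoplasmic reticulum.

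The recovered read totals ran from 17.4 to 20.3 megareads per orlistat library and from 19.2 to 24.3 megareads per obese control library. The libraries of a group lay close to each other. Between pairs of libraries the median gene varied 1.60 to 1.68 times as much as counting error alone gives within orlistat, and 1.62 to 1.66 times within the obese control (chi-square over its expected median). The defining hepatocyte genes were high in all 6 libraries, with albumin (Alb) at 50182, 53066 and 48306 FPKM with orlistat, against 60871, 62106 and 59009 FPKM in the obese control.

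With orlistat, 6188 of 11945 genes (51.8%) differed from the obese control at an adjusted p under 0.05 (limma, Benjamini-Hochberg), 3133 higher (26.2%) and 3055 lower (25.6%). Values below are differences of log2(FPKM + 1), orlistat minus obese control, with the standard error of the fit, and "rose" or "fell" is written of genes that passed that threshold. Such a difference understates the change of a gene with low FPKM. Most differences were small. Rises above 1 on this scale numbered 63 and falls below -1 numbered 124, and 670 genes rose and 727 fell by more than 0.5. The values of the orlistat and obese control libraries did not overlap for 6950 genes (58.2%). The share called is the background against which each gene group below is to be read, and the median difference over all genes was -0.01. That median moved to 0.14 when the values were rescaled to TPM (a rescaling of each library to 1 total), which gave 4989 higher and 1566 lower genes, and to 0.06 when they were rescaled to the recovered reads, with 4059 higher and 2197 lower. The scaling total behind the deposited FPKM was 1.02 to 1.05 times the recovered reads in the orlistat libraries, against 0.971 to 0.980 times in the obese control, and no source used here says what that total counts. Differences are therefore relative to the deposited scaling, and a direction near 0 depends on the scale. Of the 1397 genes called beyond 0.5 in size, 1356 were called in the same direction as TPM.

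Gene length moved with the comparison. The median difference was -0.19 in the class of genes with the shortest listed length (5 classes of equal size, 42 to 1103 bases), -0.01 in the middle class and 0.12 in the longest (3740 to 29464 bases). Relative to the mean of all 18 libraries, the shortest class lay at -0.09 to -0.06 in the orlistat libraries, against 0.10 to 0.12 in the obese control and -0.05 to -0.04 in the normal control, so the obese control libraries stood apart from both. After the trend with length was removed from each library, 2868 genes were higher and 2913 lower. For several lists of short genes, values after that step are given below.

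**Figure D1:**
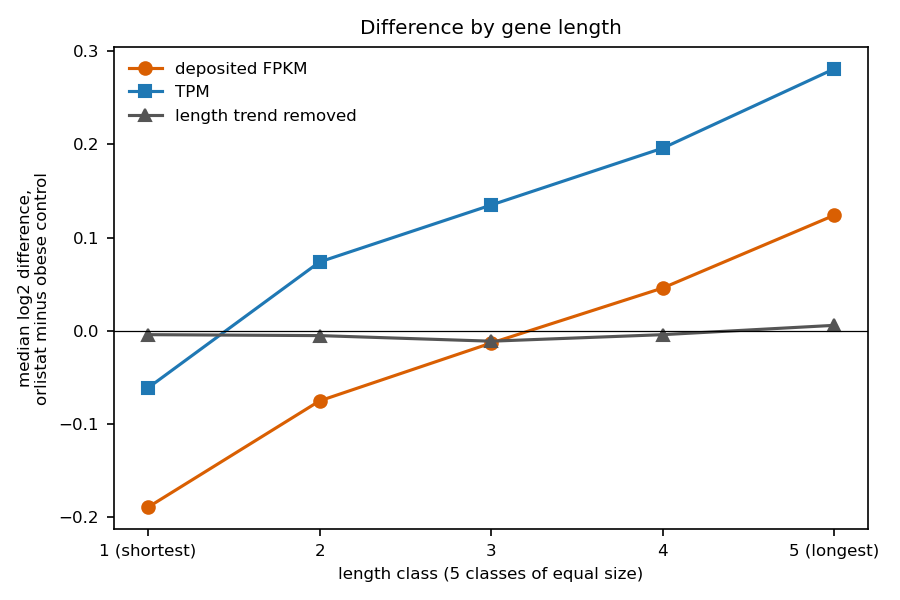
Median difference (log2 of FPKM + 1, orlistat minus obese control, vertical axis) in 5 equal classes of the tested genes by listed gene length (horizontal axis, shortest to longest) on the deposited scale, as TPM and after removal of the length trend. On the deposited scale the medians climb from -0.19 to 0.12, as TPM from -0.06 to 0.28, and they lie between -0.01 and 0.01 once the trend is removed.

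Cyp7a1, Cyp7b1 and Gpt were among the largest rises. Cyp7a1 encodes cholesterol 7alpha-hydroxylase, which commits cholesterol to the classic route of bile acid synthesis (ENSRNOG00000009488, chromosome 5, 19358734 to 19368431, as in the deposited table, whose genome build the sources used here do not give). It stood at 66.03, 66.2 and 66.6 FPKM with orlistat, against 19.03, 19.1 and 18.8 FPKM in the obese control, a difference of 1.75 ± 0.03 (adjusted p = 3.14e-15). Cyp7b1, the hydroxylase of the alternative bile acid route (ENSRNOG00000009730, chromosome 2, 102701903 to 102871257), was at 8.66, 8.26 and 9.002 FPKM with orlistat and 2.12, 1.69 and 1.89 FPKM in the obese control, a difference of 1.74 ± 0.09 (adjusted p = 2.17e-10). The largest rises and falls were picked among genes whose groups did not overlap, so that separation follows from the choice. Both hydroxylases stood above the normal control as well, where the means were 33.6 ± 0.564 and 4.66 ± 0.115 FPKM. Gpt, the alanine aminotransferase that turns alanine into pyruvate (ENSRNOG00000033915, chromosome 7, 117759083 to 117761931), was at 89.8, 88.2 and 86.9 FPKM with orlistat, against 29.5, 30.1 and 31.6 FPKM in the obese control (1.51 ± 0.04, adjusted p = 8.72e-14).

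Nrg4, which encodes neuregulin 4, a secreted ligand of the receptor ErbB4, was at 8.01, 9.28 and 7.32 FPKM with orlistat and 1.02, 1.21 and 0.794 FPKM in the obese control (2.19 ± 0.11). Its normal control level of 20.3 ± 1.45 FPKM was higher still. Noct, which encodes nocturnin, a phosphatase with daily rhythm in mouse liver, was at 6.88, 6.80 and 7.51 FPKM with orlistat, against 1.62, 1.79 and 2.07 FPKM in the obese control (1.51 ± 0.06), and at 7.32 ± 0.256 FPKM in the normal control. The purine enzyme guanine deaminase (Gda) was at 38.5, 36.1 and 37.5 FPKM with orlistat and 9.80, 11.02 and 12.1 FPKM in the obese control (1.68 ± 0.06). In each of these the lowest orlistat library lay above the highest obese control library, which the choice of genes required. Ddr1, a collagen-binding receptor tyrosine kinase (1.72 ± 0.08), Glt1d1 (1.54 ± 0.06), the methyltransferase gene Inmt (1.59 ± 0.10) and the uridine phosphorylase gene Upp2 (1.42 ± 0.06) rose too. Nat8f3, an acetyltransferase gene (1.92 ± 0.11), and the carboxylesterase gene Ces2e (2.37 ± 0.07) belong to families of close copies, between which reads could be split, so their levels are uncertain.

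Fgf21, Chka and Gckr were among the largest falls. Fgf21 encodes a hormone that the liver releases in fasting and stress and that raises energy use. It was at 4.67, 5.28 and 4.30 FPKM with orlistat, against 17.9, 18.3 and 20.9 FPKM in the obese control (-1.80 ± 0.11, adjusted p = 1.45e-09) and 13.8 ± 0.782 FPKM in the normal control. Chka, choline kinase alpha, the first enzyme of phosphatidylcholine synthesis from choline, was at 6.86, 6.34 and 6.12 FPKM with orlistat and 24.998, 23.8 and 24.9 FPKM in the obese control (-1.78 ± 0.05). Its normal control mean of 6.13 ± 0.368 FPKM differed from the orlistat mean by 0.06 ± 0.05 (adjusted p = 0.346). Gckr, which encodes the protein that holds glucokinase inactive in the nucleus, was at 23.7, 23.8 and 26.2 FPKM with orlistat, against 74.8, 74.7 and 77.6 FPKM in the obese control (-1.59 ± 0.04).

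Slc34a2, a sodium phosphate cotransporter, fell by 1.91 ± 0.05, and the trefoil peptide gene Tff3, known from mucus-secreting epithelia, fell to 0.204, 0.606 and 0.409 FPKM with orlistat, against 7.64, 5.04 and 6.80 FPKM in the obese control. Acot5, a peroxisomal acyl-CoA thioesterase gene, differed by -1.80 ± 0.05, and Akr1c2, an aldo-keto reductase gene, by -3.12 ± 0.07. Both have near relatives that could share their reads. Rps6, a ribosomal protein gene, was at 5.64, 4.68 and 3.28 FPKM with orlistat and 50.9, 73.6 and 52.7 FPKM in the obese control (-3.45 ± 0.83). It varied widely within other groups, at 55.95, 27.1 and 7.53 FPKM in the normal control and 21.1, 3.80 and 2.64 FPKM at the high plantain dose. It also has many processed copies that could share its reads, so its value is uncertain.

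**Figure D2:**
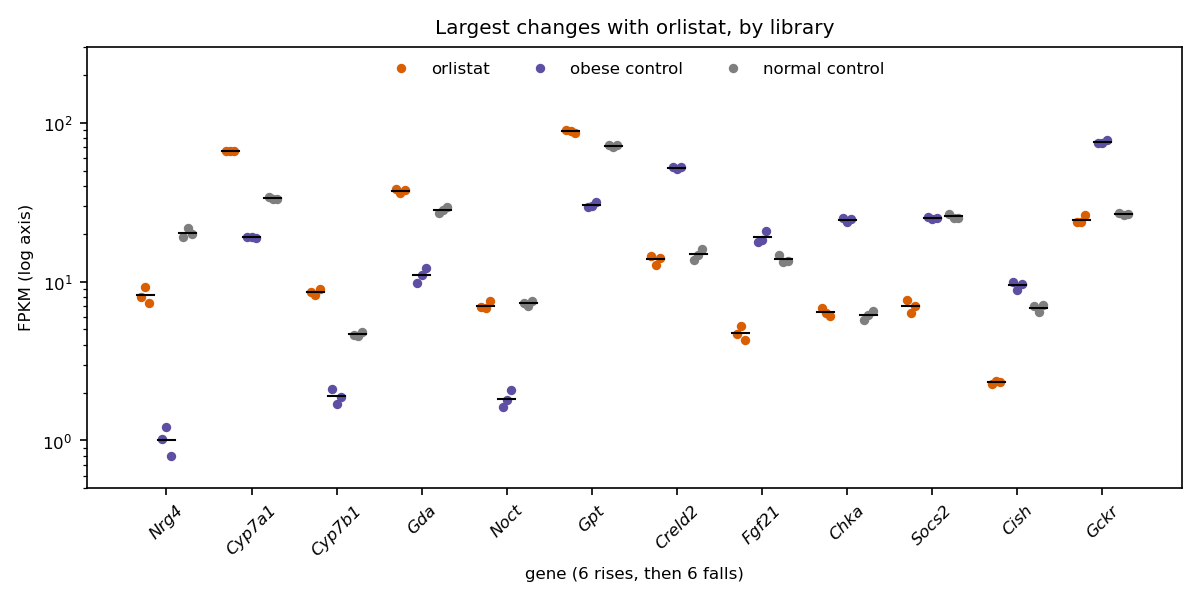
FPKM (log axis) of 12 genes among the largest rises and falls in each library of the orlistat, obese control and normal control groups. Points are libraries and bars are means of 3. For every gene the 3 orlistat points lie apart from the 3 obese control points, which was a condition for choosing the genes. Cyp7a1 lies between 66.03 and 66.6 FPKM with orlistat and between 18.8 and 19.1 FPKM in the obese control.

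Chaperones of the endoplasmic reticulum fell together with orlistat, and the rat promoters of several carry the known response element. Of 25 tested genes of the unfolded protein response, 19 fell and 3 rose, with a median of -0.43 beside -0.01 for all genes and a background of 25.6% lower. The median lay between -0.45 with the length trend removed and -0.27 as TPM, where 13 were lower and 7 higher. The ER stress response element, called ERSE, joins a CCAAT box and a CCACG box with 9 bases of any kind between them, and is bound by ATF6 with the factor NF-Y. Rat promoters of RefSeq (build GRCr8, 250 bases before and 50 after the gene start) were matched by symbol for 19 of the listed genes, and 8 of these held the ERSE on either strand, against 21 of all 27457 promoters (0.0765%). The related ERSE-II, an ATTGG box and a CCACG box with 1 base of any kind between them, was found in 3 of them, and in 0.0546% of all promoters. A match is a run of letters and not a proven binding site. Both elements are known from genes of this response, so their frequency in the list does not bear on the effect of orlistat. The sites of the listed genes are shown with the element in capitals and 5 bases of flank on each side, read on the strand of the gene. Where the element lies on the opposite strand, its letters appear reversed and complemented, as CGTGG at the left end:
Hspa5 ERSE chr3:38452973-38452991: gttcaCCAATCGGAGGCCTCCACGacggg
Hsp90b1 ERSE chr7:23012451-23012469: caaacCCAATCGAAAGGAGCCACGcttcg
Hsp90b1 ERSE chr7:23012347-23012365: gagtgCGTGGTGAGGCACGATTGGtgggt
Calr ERSE chr19:40213135-40213153: caacgCGTGGTCGACCCTGATTGGcccag
Canx ERSE chr10:35158069-35158087: cttgtCCAATCATCACGCTCCACGaagaa
Creld2 ERSE chr7:121789239-121789257: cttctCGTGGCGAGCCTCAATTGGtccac
Dnajc3 ERSE chr15:102432534-102432552: caaagCCAATCAGCGCCAACCACGaccca
Derl3 ERSE chr20:12766601-12766619: tctacCGTGGGACTTCCTTATTGGctagc
Xbp1 ERSE chr14:84604558-84604576: acaggCCAATCGCAGACGGCCACGaccct
Hyou1 ERSE-II chr8:53602694-53602704: cgtgaCGTGGGCCAATccgca
Hyou1 ERSE-II chr8:53602794-53602804: ttctaCGTGGCCCAATgggga
Dnajb11 ERSE-II chr11:91672800-91672810: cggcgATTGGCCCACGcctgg
Herpud1 ERSE-II chr19:10614821-10614831: cgctgATTGGGCCACGttggg

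The best-known of these promoters, that of Hspa5, which encodes the chaperone BiP, is at chr3:38452766-38453065 (GRCr8) on the plus strand and has its element close to the gene start:
Hspa5 promoter: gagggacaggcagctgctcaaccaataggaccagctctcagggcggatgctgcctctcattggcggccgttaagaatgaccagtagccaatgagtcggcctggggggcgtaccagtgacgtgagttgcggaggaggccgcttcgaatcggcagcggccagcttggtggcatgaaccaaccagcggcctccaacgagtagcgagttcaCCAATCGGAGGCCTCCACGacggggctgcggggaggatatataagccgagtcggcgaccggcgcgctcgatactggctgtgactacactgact
The promoter of Creld2, an ER chaperone with EGF-like domains and the gene of the list with the largest fall, is at chr7:121789134-121789433 (GRCr8) on the plus strand and carries the element in the other orientation:
Creld2 promoter: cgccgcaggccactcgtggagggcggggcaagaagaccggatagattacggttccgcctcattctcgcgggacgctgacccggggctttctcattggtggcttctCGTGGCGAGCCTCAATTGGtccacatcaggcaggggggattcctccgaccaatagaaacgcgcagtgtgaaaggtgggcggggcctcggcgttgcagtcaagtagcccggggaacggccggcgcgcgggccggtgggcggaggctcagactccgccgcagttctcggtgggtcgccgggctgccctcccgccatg

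Creld2 itself was at 14.5, 12.7 and 14.1 FPKM with orlistat, against 52.7, 51.4 and 52.7 FPKM in the obese control (-1.85 ± 0.08, adjusted p = 2.34e-11). Hspa5 was at 220.1, 221 and 220.3 FPKM with orlistat and 389.6, 390.3 and 389 FPKM in the obese control (-0.82 ± 0.01). Hyou1, a large chaperone that works with BiP and whose promoter holds the ERSE-II letters in 2 places, was at 24.1, 22.8 and 24.7 FPKM with orlistat, against 66.8, 64.9 and 63.4 FPKM in the obese control (-1.41 ± 0.04). None of these overlapped between groups, which for Creld2 was required by its choice as one of the largest falls. Manf, a secreted ER protein, fell (-1.05 ± 0.03), as did the disulfide isomerase gene Pdia4 (-0.67 ± 0.02) and the ER form of HSP90, Hsp90b1 (-0.65 ± 0.02). The exceptions included Edem1, which targets misfolded glycoproteins for disposal (0.69 ± 0.02), and Herpud1, a part of the ER disposal machinery whose promoter holds an ERSE-II (0.52 ± 0.02), both of which rose. Against the normal control, 16 of the 25 listed genes were lower and 1 higher (median -0.16), beside 24.3% lower over all genes. The difference from healthy liver did not pass the threshold for Hspa5 (-0.02 ± 0.01 against the normal control, adjusted p = 0.28) or Hsp90b1 (-0.01 ± 0.02, adjusted p = 0.674). Hyou1 was lower than in healthy liver (-0.32 ± 0.04, adjusted p = 7.3e-06). These tests share the orlistat libraries with those above. Of all genes with an ERSE in the promoter, 15 were tested, of which 6 fell and 1 rose, beside 25.6% lower over all genes. These 15 include the 8 listed genes with the element, so the count is not independent of the list. Of 8 tested genes with an ERSE-II, 5 fell and 2 rose, again with listed genes among them.

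The machinery that moves new proteins into and out of the ER followed. Of 22 genes of ER translocation and vesicle coats, 18 fell and 4 rose (median -0.28, and -0.28 without the length trend, with 15 lower, but -0.12 as TPM, with 13 lower and 6 higher). The channel subunits Sec61a1 (-0.56 ± 0.02), Sec61b (-0.52 ± 0.04) and Sec61g (-0.68 ± 0.04) and the associated Ssr2 (-0.55 ± 0.03), Ssr3 (-0.56 ± 0.03) and Ssr4 (-0.55 ± 0.04) fell. Proteasome subunits, which degrade ubiquitin-tagged proteins, were lower for 22 of 31 and higher for 1, led by Psmd4 (-0.53 ± 0.04) and Psmb3 (-0.39 ± 0.04). Their median was -0.23, and -0.14 without the length trend. As TPM the median was -0.07, with 12 lower and 9 higher.

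The amino acid branch of the stress response, driven by ATF4, had 10 of 17 members lower and 1 higher (median -0.22). As TPM the median was -0.06, with 6 lower and 1 higher. Its serine synthesis genes were low. Phgdh was at 0.629, 0.343 and 0.525 FPKM with orlistat, against 1.84, 1.53 and 1.94 FPKM in the obese control (-0.89 ± 0.10), and Psat1 differed by -0.61 ± 0.10. The asparagine synthetase gene Asns (-0.70 ± 0.10), the serine hydroxymethyltransferase gene Shmt2 (-0.37 ± 0.02) and Ddit3, which encodes the stress factor CHOP (-0.42 ± 0.07), fell, and the folate enzyme gene Aldh1l2 rose (0.18 ± 0.03). Cytosolic heat shock chaperones were mixed, with 7 lower and 4 higher of 18 (median -0.08, turning to 0.08 as TPM). The HSP90 partner genes Fkbp4 (-0.64 ± 0.02) and Stip1 (-0.53 ± 0.03) fell, together with Hsph1 (-0.61 ± 0.04) and Hspa8 (-0.50 ± 0.04). Hsp90ab1 fell too (-0.24 ± 0.02, a call lost after quantile normalization with an adjusted p of 0.0659). The list also holds the mitochondrial chaperonin genes Hspe1 and Hspd1, of which Hspd1 rose (0.25 ± 0.02).

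**Figure D3:**
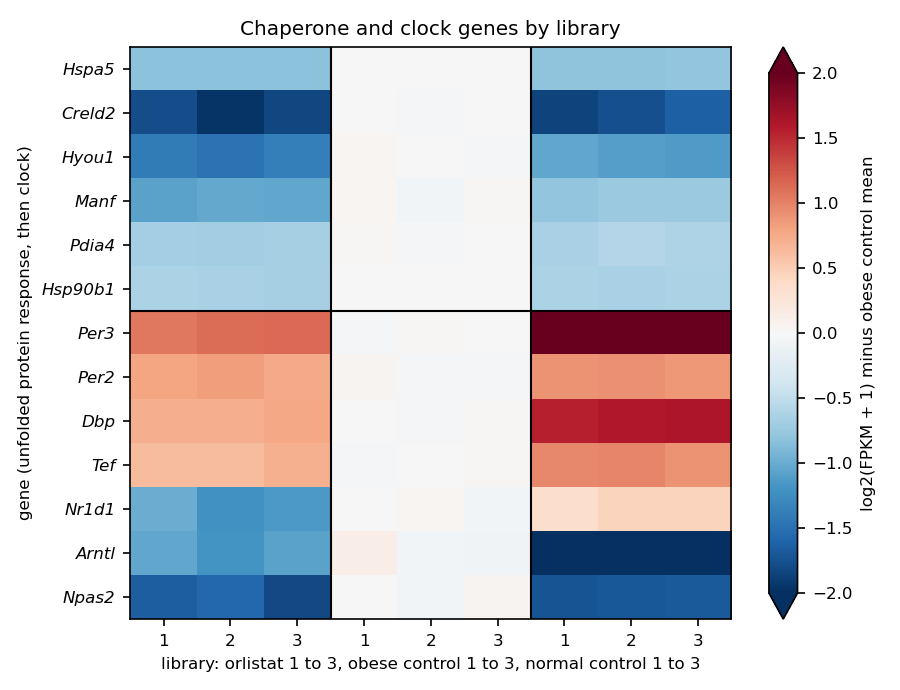
Level of genes of the unfolded protein response and of the circadian clock in each library, as log2(FPKM + 1) minus the mean of the obese control libraries (colour scale, blue lower and red higher, with values beyond 2 in size at the end colour). Columns are the orlistat, obese control and normal control libraries. The chaperone genes from Hspa5 to Hsp90b1 are lower in all 3 orlistat libraries, and Per3 and Dbp are higher while Npas2, Nr1d1 and Arntl are lower.

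Genes of bile acid synthesis and sterol supply rose in larger numbers than they fell. Of 16 bile acid synthesis genes, 8 rose and 4 fell (median 0.12, background 26.2% higher). Beside the hydroxylases, the 5beta-reductase gene Akr1d1 (0.58 ± 0.02), the sterol 27-hydroxylase gene Cyp27a1 (0.39 ± 0.02) and the bile acid ligase gene Slc27a5 (0.29 ± 0.02) rose, and the lipid carrier gene Scp2 fell (-0.22 ± 0.02), a difference that vanished after quantile normalization (0.01). Transporters of bile and sterols had 6 higher and 6 lower of 13 tested (median 0.02, and 0.19 as TPM with 8 higher and 1 lower). The sterol exporter genes Abcg5 (0.71 ± 0.06) and Abca1 (0.39 ± 0.04) and the uptake carrier Slco1a1 (0.27 ± 0.02) rose. The exporters into bile of phospholipid, Abcb4 (-0.61 ± 0.03), of bile salts, Abcb11 (-0.21 ± 0.02), and of conjugates, Abcc2 (-0.21 ± 0.02), fell, though the calls of Abcb11 and Abcc2 were lost as TPM (adjusted p = 0.264 and 0.253).

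In the mevalonate pathway 6 of 10 genes rose and 1 fell (median 0.22), and in the sterol steps after squalene 8 of 11 rose and 2 fell (median 0.42). Tm7sf2, a sterol reductase, was at 33.1, 32.8 and 36.8 FPKM with orlistat and 17.004, 17.9 and 17.6 FPKM in the obese control (0.93 ± 0.04). The sterol oxidase gene Msmo1 (0.85 ± 0.05), the squalene epoxidase gene Sqle (0.62 ± 0.06), Acat2 (0.64 ± 0.11), Fdft1 (0.57 ± 0.03), Lss (0.45 ± 0.06) and Sc5d (0.36 ± 0.03) rose as well, and Mvd fell (-0.42 ± 0.15), a call that was lost without orlistat library 3 (adjusted p = 0.156), without obese control library 1 (adjusted p = 0.0696) and without obese control library 3 (adjusted p = 0.106). The Mvd call was also lost with no filter on low values, as TPM, on recovered reads, in a fit of these groups alone and with voom (adjusted p = 0.0548, 0.103, 0.0569, 0.0714 and 0.0525).

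Sensors and uptake genes rose in 7 and fell in 3 of 13 cases (median 0.25). The paired retention proteins of SREBP moved in opposite directions. Insig1 was at 111, 108 and 109.7 FPKM with orlistat, against 67.8, 69.9 and 68.1 FPKM in the obese control (0.67 ± 0.03). Insig2 was at 91.1, 94.7 and 92.4 FPKM with orlistat, against 210.0, 206 and 202 FPKM in the obese control (-1.14 ± 0.03). The cholesterol carrier gene Stard4 rose (0.59 ± 0.04).

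Fat-making enzymes moved apart. Of 14 genes of fatty acid synthesis 8 rose and 5 fell (median 0.13, mean -0.02). Scd, the delta-9 desaturase that makes oleate, was at 84.2, 81.7 and 84.5 FPKM with orlistat, against 243, 244 and 245 FPKM in the obese control (-1.53 ± 0.02, adjusted p = 1.72e-16), and at 619 ± 2.86 FPKM in the normal control. The carboxylase genes Acaca (0.67 ± 0.04) and Acacb (0.56 ± 0.04), which make malonyl-CoA, and Thrsp (0.54 ± 0.01) rose. The elongase gene Elovl5 (-0.71 ± 0.02) and the malic enzyme gene Me1 (-0.67 ± 0.06) fell.

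Triglyceride and droplet genes fell in 8 and rose in 4 of 19 cases. Their median was -0.03 and turned to 0.14 as TPM, with 10 higher and 6 lower. Plin2, the coat protein of hepatocyte lipid droplets, was at 36.5, 36.3 and 35.1 FPKM with orlistat, against 67.6, 71.3 and 71.6 FPKM in the obese control (-0.94 ± 0.04, adjusted p = 1.01e-11) and 43.2 ± 0.905 FPKM in the normal control. G0s2, an inhibitor of adipose triglyceride lipase, fell (-0.61 ± 0.02), and so did the acyltransferase genes Dgat2 (-0.37 ± 0.02) and Agpat3 (-0.52 ± 0.03). Lpin2, a phosphatidate phosphatase gene, was at 19.5, 19.5 and 19.3 FPKM with orlistat and 8.51, 8.64 and 8.25 FPKM in the obese control (1.11 ± 0.03). The monoglyceride lipase gene Mgll rose (0.95 ± 0.03). Lipases and carboxylesterases, the enzyme class to which the targets of orlistat belong, had 3 members higher, Ces2e included, and 3 lower of 13 (median 0.02, and 0.19 as TPM with 8 higher and 0 lower). The lysosomal lipase gene Lipa rose (0.13 ± 0.02), while Lipc, the hepatic lipase gene (-0.20 ± 0.02), the lipoprotein lipase gene Lpl (-0.25 ± 0.06) and the deacetylase gene Aadac (-0.24 ± 0.05) fell. These 3 calls were lost as TPM, and that of Lipc after quantile normalization too.

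Fatty acid oxidation did not move as one. Mitochondrial oxidation and ketogenesis genes fell in 11 and rose in 4 of 21 cases. The median was -0.05 and turned to 0.12 as TPM, with 11 higher and 7 lower. Cpt1a, which admits long-chain fatty acids to mitochondria, was at 130.5, 124 and 129 FPKM with orlistat, against 78.6, 77.2 and 79.1 FPKM in the obese control (0.70 ± 0.02). The ketone body gene Bdh1 (-0.29 ± 0.02), Eci1 (-0.46 ± 0.03) and Etfdh (-0.40 ± 0.02) fell. Peroxisomal and omega oxidation had 7 higher and 8 lower of 18 (median -0.10, turning to 0.06 as TPM). Ehhadh (0.73 ± 0.02) and Acot12 (0.55 ± 0.03) rose. Crot, a carnitine acyltransferase of peroxisomes, was at 53.02, 54.5 and 55.7 FPKM with orlistat and 137, 137 and 133 FPKM in the obese control (-1.30 ± 0.03), and Cyp4a2 (-0.74 ± 0.03) and Acot4 (-0.52 ± 0.04), both with close relatives, fell too. Targets of PPARalpha and fasting fell in 8 and rose in 3 of 12 cases (median -0.22, and -0.06 as TPM with 5 lower and 4 higher). Among the falls were Angptl4, an inhibitor of lipoprotein lipase (-0.67 ± 0.04), and Fabp1, the fatty acid carrier of liver (-0.54 ± 0.04).

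Apolipoprotein and lipoprotein genes fell in 13 and rose in 4 of 21 cases. The median was -0.19 on the deposited scale, -0.07 without the length trend and -0.02 as TPM, with 9 higher and 7 lower as TPM. Angptl8, an insulin-induced regulator of plasma triglyceride, was at 23.9, 25.1 and 27.4 FPKM with orlistat, against 62.03, 58.5 and 61.1 FPKM in the obese control (-1.22 ± 0.06, adjusted p = 7.19e-11). The high-density lipoprotein genes Apoa1 (-0.56 ± 0.02), Apoa2 (-0.34 ± 0.02) and Apom (-0.59 ± 0.02) fell, with Apoc3, an inhibitor of triglyceride clearance (-0.46 ± 0.02), and Apoa4 (-0.31 ± 0.02).

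Enzymes of amino acid breakdown and the urea cycle rose more often than they fell. Of 35 breakdown enzymes 20 rose and 8 fell (median 0.17), and of 14 genes of the urea cycle and glutamine handling 12 rose and 1 fell (median 0.23). The medians were 0.19 and 0.25 without the length trend. Sds, serine dehydratase, was at 224, 217 and 218 FPKM with orlistat, against 84.8, 83.04 and 88.5 FPKM in the obese control (1.35 ± 0.02, adjusted p = 3.14e-15) and 234 ± 0.459 FPKM in the normal control. Tat, the tyrosine aminotransferase that glucocorticoids induce, was at 682, 679 and 676 FPKM with orlistat and 453, 437 and 447 FPKM in the obese control (0.61 ± 0.02). Gls2, the liver glutaminase that releases ammonia for the urea cycle, was at 123, 125 and 129 FPKM with orlistat, against 67.4, 61.1 and 62.8 FPKM in the obese control (0.97 ± 0.03). These enzymes were chosen for small p-values, and each had its lowest orlistat library above its highest obese control library.

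The carriers that bring amino acids into the cell, Slc7a2 (0.94 ± 0.03) and Slc38a4 (0.76 ± 0.02), the mitochondrial ornithine carrier gene Slc25a15 (0.32 ± 0.02), Cps1 (0.56 ± 0.01), Ass1 (0.63 ± 0.02) and Uroc1 (0.46 ± 0.02) rose. Kynu, kynureninase of the tryptophan pathway, ran the other way, at 37.4, 38.2 and 36.6 FPKM with orlistat and 98.1, 95.2 and 92.97 FPKM in the obese control (-1.33 ± 0.04). In the methionine cycle 7 of 11 genes rose and 4 fell (median 0.23). Sardh (0.92 ± 0.03), Ahcy (0.58 ± 0.01), Mat1a (0.46 ± 0.01), Shmt1 (0.35 ± 0.03) and Bhmt (0.23 ± 0.01) rose.

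Liver lobules divide this work by zone, with amino acid breakdown near the portal vein and drug metabolism near the central vein. Of 12 periportal genes 10 rose and 1 fell (median 0.21), among them Pigr (0.29 ± 0.01) and Asl (0.23 ± 0.02). Several of these are also members of the amino acid lists. Of 12 pericentral genes 5 rose and 4 fell (median -0.02, and 0.13 as TPM with 6 higher and 2 lower). Cyp2e1 was at 1385, 1408 and 1386 FPKM with orlistat, against 759.6, 741 and 738 FPKM in the obese control (0.90 ± 0.02), and Cyp1a2 (0.68 ± 0.02), Oat (0.46 ± 0.03) and Slc1a2 (0.48 ± 0.08) rose, while the Wnt target Axin2 (-0.44 ± 0.06) and Gulo, the vitamin C synthesis gene (-0.27 ± 0.02), fell.

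Genes of carbohydrate metabolism moved in both directions. Glucose production and glycogen genes rose in 10 and fell in 10 of 23 cases (median 0.00, and 0.10 as TPM with 13 higher and 7 lower). Ugp2, which makes the glucose donor for glycogen (0.68 ± 0.03), and the glucose transporter gene Slc2a2 (0.62 ± 0.02) rose. The glycogen phosphorylase gene Pygl fell (-0.69 ± 0.02), and so did the fructose enzymes Khk (-0.39 ± 0.03) and Tkfc, at 38.97, 37.9 and 39.8 FPKM with orlistat, against 69.2, 64.8 and 65.6 FPKM in the obese control and 179.8 ± 4.26 FPKM in the normal control. Insulin and glucagon signalling had 6 higher and 5 lower of 13 (median 0.05, and 0.22 as TPM with 7 higher and 2 lower). The insulin receptor gene Insr (0.54 ± 0.04), the kinase subunit gene Pik3r1 (0.63 ± 0.03) and the factor gene Foxo1 (0.64 ± 0.05) rose. Irs2 (-0.48 ± 0.06), the receptor inhibitor gene Grb14 (-0.34 ± 0.05) and the glucagon receptor gene Gcgr (-0.17 ± 0.04) fell, the last a call lost as TPM, after quantile normalization, on recovered reads and with voom (adjusted p = 0.957, 0.119, 0.102 and 0.0995).

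**Figure D4:**
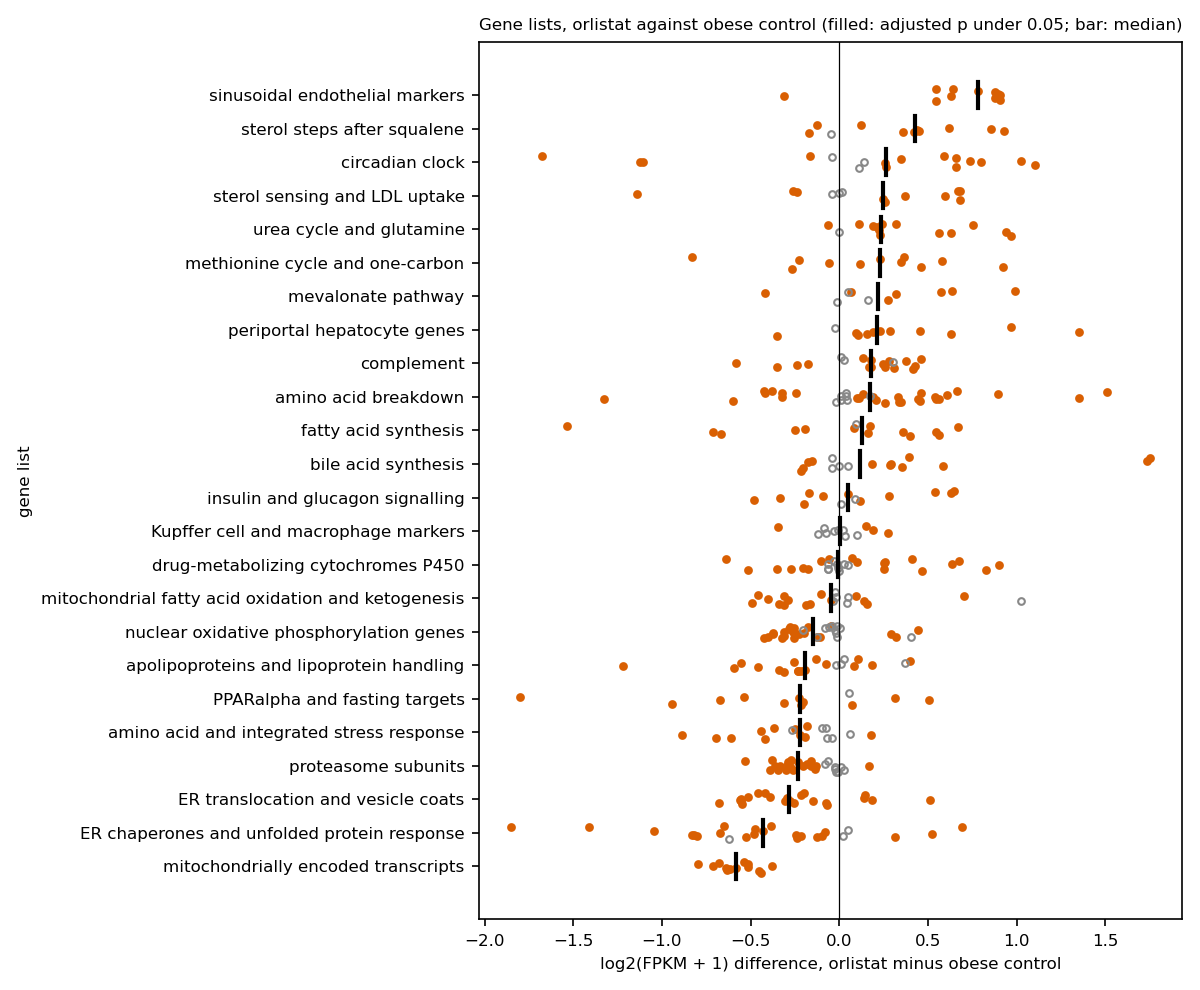
Differences (log2 of FPKM + 1, orlistat minus obese control, horizontal axis) of the tested members of 24 gene lists. Each dot is a gene, filled where it passed the threshold of 0.05 on the adjusted p, and the bar is the list median. Sinusoidal endothelial markers (0.78) have the highest median and mitochondrially encoded transcripts (-0.58) the lowest of the lists drawn.

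The circadian clock couples an activator limb, BMAL1 (Arntl) with CLOCK or NPAS2, to repressors of the PER, CRY and REV-ERB families. Clock genes rose in 10 and fell in 4 of 17 cases (median 0.26). Npas2 was at 0.155, 0.223 and 0.0332 FPKM with orlistat, against 2.62, 2.48 and 2.76 FPKM in the obese control (-1.67 ± 0.09). Per3 was at 5.85, 6.17 and 6.24 FPKM with orlistat, against 2.22, 2.34 and 2.31 FPKM in the obese control (1.11 ± 0.05), with 13.7 ± 0.350 FPKM in the normal control. Arntl itself fell (-1.10 ± 0.08). The repressor gene Per2 (0.80 ± 0.04) and the output factors Dbp (0.74 ± 0.03) and Tef (0.66 ± 0.03) rose, and Nr1d1, which encodes REV-ERBalpha, fell to 12.3, 10.4 and 10.9 FPKM with orlistat, against 25.7, 26.3 and 24.5 FPKM in the obese control (-1.12 ± 0.06). The E-box CACGTG, to which BMAL1 and its partners bind, was found in 6.65% of all promoters. Of 16 clock genes matched by symbol, 4 held it (Tef, Ciart, Bhlhe40 and Bhlhe41, the last below the filter on low values). Of all 781 tested genes with the E-box, 217 rose and 205 fell, close to the background of 26.2% higher and 25.6% lower. The labels give no hour of sampling, and whether the groups were sampled at the same hour was not tested.

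Drug-metabolizing cytochromes P450 and their partners rose in 11 and fell in 8 of 28 cases (median -0.01, and 0.16 as TPM with 20 higher and 3 lower). Por, the electron donor of these enzymes (0.64 ± 0.03), Cyp3a18 (0.46 ± 0.04) and Cyp2c23 (0.26 ± 0.01) rose, and Nr1i3, the xenobiotic receptor CAR, fell (-0.64 ± 0.06). Conjugation enzymes had 7 higher and 6 lower of 22 (median -0.03, and 0.14 as TPM with 14 higher and 3 lower, or 0.05 without the length trend with 10 higher and 6 lower), with Ugt2b17 (0.85 ± 0.04), Ugt2a3 (0.55 ± 0.05) and Sult1a1 (0.40 ± 0.01) higher and Gstt1 (-0.65 ± 0.05) and Gstm1 (-0.52 ± 0.01) lower. Members of these families share sequence, so their reads could be split. NRF2 and antioxidant genes had 6 higher and 9 lower of 19 (median -0.05, turning to 0.11 as TPM). The metallothionein gene Mt2A (0.65 ± 0.04), Nqo1 (0.63 ± 0.05), the glutathione synthesis gene Gclm (0.61 ± 0.02) and Sod2 (0.31 ± 0.02) rose, while Ephx1 (-0.74 ± 0.01) and the glutathione peroxidase gene Gpx1 (-0.64 ± 0.02) fell.

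Growth hormone acts on the liver through STAT5, which switches on its own feedback inhibitors Socs2 and Cish. Both were low with orlistat. Socs2 was at 7.68, 6.36 and 7.06 FPKM with orlistat, against 25.5, 24.7 and 25.3 FPKM in the obese control and 25.8 ± 0.861 FPKM in the normal control (-1.71 ± 0.07 against the obese control). Cish was at 2.28, 2.37 and 2.34 FPKM with orlistat and 9.91, 8.85 and 9.64 FPKM in the obese control (-1.65 ± 0.05). The wider list had 6 higher and 8 lower of 17 (median -0.13, turning to 0.03 as TPM), with the receptor gene Ghr higher (0.27 ± 0.02) and Igfals (-0.35 ± 0.02), Cux2 (-0.93 ± 0.08) and Srd5a1 (-0.15 ± 0.02) lower, the last a call lost as TPM, after quantile normalization and on recovered reads (adjusted p = 0.625, 0.224 and 0.0613). It mixes genes of male and female type and gives no direction of hormone action. Hepatokines and binding proteins fell in 10 and rose in 4 of 18 cases (median -0.20). The median was -0.15 without the length trend, with 8 lower and 5 higher, and -0.03 as TPM, with 8 lower and 7 higher. Inhbc, an activin subunit gene (-0.79 ± 0.03), and Fetub (-0.33 ± 0.01) fell. Selenop, the selenium carrier of plasma, was at 4958, 4831 and 4866 FPKM with orlistat, against 3530.2, 3339 and 3295 FPKM in the obese control (0.53 ± 0.02), and was the most abundant gene that rose.

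Because orlistat lowers fat absorption, genes that handle fat-soluble vitamins were listed. They fell in 10 and rose in 5 of 18 cases (median -0.10, turning to 0.07 as TPM). The carotenoid cleavage genes parted, Bco1 (-0.44 ± 0.04) lower and Bco2 (0.57 ± 0.04) higher. Rarb, a retinoic acid receptor gene that retinoic acid itself induces, was at 6.39, 6.28 and 7.04 FPKM with orlistat, against 11.5, 11.1 and 11.5 FPKM in the obese control (-0.71 ± 0.05). Vkorc1, which recycles vitamin K (-0.58 ± 0.03), and the retinol and thyroxine carrier gene Ttr (-0.48 ± 0.03) fell. After quantile normalization, which moves the most abundant genes most, the Ttr difference was 0.03. Coagulation factors, several of which need vitamin K, fell in 10 and rose in 6 of 18 cases. Their median was -0.09 and turned to 0.08 as TPM, with 12 higher and 2 lower, and the differences were small, with the factor V gene F5 (0.52 ± 0.03), the kininogen gene Kng1 (0.37 ± 0.02) and the protein S gene Pros1 (0.35 ± 0.03) higher. The plasmin inhibitor gene Serpinf2 (-0.28 ± 0.02), the factor X gene F10 (-0.23 ± 0.02) and the fibrinogen gene Fga (-0.18 ± 0.01) were lower, and none of these 3 was called lower after quantile normalization (-0.04, 0.01 and 0.11).

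Complement genes rose in 12 and fell in 4 of 19 cases (median 0.18), with the terminal component gene C5 (0.42 ± 0.02), the inhibitor gene C4bpa (0.37 ± 0.02) and the pore subunit gene C8a (0.26 ± 0.01) higher. The pore component genes C6 (-0.58 ± 0.02) and C8g (-0.35 ± 0.02) were lower. Acute phase proteins had 6 higher and 5 lower of 14 (median 0.04, and 0.21 as TPM with 10 higher and 2 lower), with the copper carrier gene Cp (0.36 ± 0.02) and Itih4 (0.24 ± 0.01) higher and the haem binder gene Hpx (-0.21 ± 0.01) and the antitrypsin gene Serpina1 (-0.21 ± 0.02) lower. Neither of the falls was kept after quantile normalization (0.04 and 0.01). Iron genes had 4 higher and 4 lower of 11 (median 0.05, and 0.20 as TPM with 6 higher and 2 lower). The ferritin light chain gene Ftl1 was at 1566, 1486 and 1563 FPKM with orlistat, against 3134, 2988 and 3039 FPKM in the obese control (-0.99 ± 0.02) and 1586 ± 42.8 FPKM in the normal control, though ferritin has processed copies that could share its reads. Bmp6, the endothelial signal that induces hepcidin, rose (0.72 ± 0.12), and its co-receptor gene Hjv fell (-0.67 ± 0.03).

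Interferon response genes rose in 8 and fell in 7 of 22 cases (median 0.06, and 0.21 as TPM with 12 higher and 6 lower). Stat2 (0.44 ± 0.03) and Ifit2 (0.32 ± 0.05) rose, and Ifi27 (-0.72 ± 0.02), the immunoproteasome gene Psmb9 (-0.79 ± 0.05) and Irf1 (-0.62 ± 0.10) fell. Inflammatory genes had 6 higher and 3 lower of 12 (median 0.18), with Cxcl1 at 8.32, 8.67 and 8.48 FPKM with orlistat, against 6.19, 5.77 and 6.48 FPKM in the obese control and 1.94 ± 0.110 FPKM in the normal control. Nfkbiz (0.34 ± 0.05) and Cd14 (0.30 ± 0.06) rose and Icam1 fell (-0.29 ± 0.03). Immediate early genes, which also respond to the handling of tissue, had 5 higher and 5 lower of 16 (median 0.00, and 0.13 as TPM with 6 higher and 2 lower), with the AP-1 subunit gene Fos at 0.69 ± 0.08 and Ier2 at -0.87 ± 0.06. Cell cycle and p53 genes had 5 lower and 3 higher of 10 (median -0.20). The growth arrest gene Gadd45g was at 31.8, 31.2 and 32.3 FPKM with orlistat, against 75.5, 76.5 and 79.9 FPKM in the obese control (-1.26 ± 0.05), and Cdkn1a, which encodes p21, differed by -0.65 ± 0.09. Lysosome and autophagy genes had 4 higher and 2 lower of 15 (median -0.01, and 0.16 as TPM with 11 higher and 1 lower), with Lamp1 at 0.15 ± 0.02 and Sqstm1 at -0.26 ± 0.02.

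Markers of liver sinusoidal endothelium, the fenestrated vessel lining that filters blood, rose with orlistat. Of 11 tested markers 10 rose and 1, Clec4g, fell (-0.31 ± 0.06, a call lost as TPM and without the length trend, with adjusted p of 0.0734 and 0.0619), with a median of 0.78. Their summed level was 141 to 143 FPKM with orlistat, against 91.4 to 92.7 FPKM in the obese control and 68.9 to 70.6 FPKM in the normal control, and the ranges did not overlap. In bulk liver a change in the number of cells of a type and a change in RNA per cell cannot be told apart. Lyve1, a hyaluronan receptor, was at 21.2, 20.7 and 21.1 FPKM with orlistat and 10.9, 10.5 and 10.7 FPKM in the obese control (0.91 ± 0.04). The receptor genes Kdr (0.91 ± 0.04), Tek (0.88 ± 0.05), Fcgr2b (0.78 ± 0.05) and Stab2 (0.88 ± 0.04) and the secreted protein gene Oit3 (0.89 ± 0.06) rose. These are long genes on the whole (median 4025 bases), and without the length trend the median was 0.70 with 10 higher.

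Of 12 Kupffer cell and macrophage markers 3 rose and 1 fell (median 0.01, and 0.17 as TPM with 7 higher and 0 lower), with Clec4f at 0.28 ± 0.04 and Marco at -0.35 ± 0.09 (a call lost as TPM), and their sum was 337 to 358 FPKM with orlistat, 324 to 334 FPKM in the obese control and 194 FPKM in the highest normal control library. Stellate cell and matrix genes had 5 higher and 5 lower of 20 (median 0.02, and 0.18 as TPM with 8 higher and 4 lower, or -0.01 without the length trend with 2 higher and 4 lower), and their sum was 396 to 406 FPKM with orlistat, against 459 to 462 FPKM in the obese control. Lox, which cross-links collagen, was at 3.06, 2.91 and 3.36 FPKM with orlistat, against 10.3, 9.76 and 10.1 FPKM in the obese control (-1.43 ± 0.07) and 2.90 ± 0.208 FPKM in the normal control. Fibronectin (Fn1, -0.31 ± 0.03), Pdgfrb (-0.35 ± 0.07) and decorin (Dcn, -0.39 ± 0.08) fell, of which Fn1 lost its call after quantile normalization (adjusted p = 0.0942), and Reln, a marker of resting stellate cells, rose (0.56 ± 0.04).

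Hepatocyte markers fell in 9 and rose in 3 of 14 cases, with a median of -0.16 that turned to 0.00 as TPM and 0.01 after quantile normalization. Foxa2, a liver transcription factor gene, fell (-0.68 ± 0.05), and Cebpa did too (-0.28 ± 0.03). Few markers of cell types that liver tissue can carry along passed the filter on low values. Of 5 tested lymphocyte markers 1 rose and 0 fell, of 3 neutrophil markers 0 rose and 2 fell, and of 5 fat cell markers 1 rose and 1 fell. Of 8 red blood cell genes 1 rose and 2 fell, of 2 bile duct markers 1 rose and 1 fell, and of 2 exocrine pancreas markers 0 rose and 1 fell. Without the length trend 1 of the neutrophil markers fell. The summed neutrophil markers were 6.85 to 10.4 FPKM with orlistat and 12.5 to 12.8 FPKM in the obese control, and the summed pancreas markers were 9.41 to 10.2 FPKM with orlistat and 13.6 to 13.8 FPKM in the obese control. The summed bile duct markers were 9.36 to 10.5 FPKM with orlistat and 12.6 to 15.3 FPKM in the obese control, and the summed fat cell markers 1047 to 1072 FPKM with orlistat and 1081 to 1120.3 FPKM in the obese control. For these 4 sums the ranges of the groups did not overlap. Of the fat cell markers, Adipoq, Lep and Plin1 did not pass the filter on low values. The fat cell sum therefore rests on the 5 tested members, whose reads need not come from fat cells. The bile duct sum holds Tff3, which fell (-2.41 ± 0.18), while Epcam, the other tested marker, rose (0.32). As TPM, 3 of the 5 tested fat cell markers were higher and 0 lower (median 0.12). The red blood cell genes, which did overlap, summed to 1093 to 1462 FPKM with orlistat and 1383 to 1666 FPKM in the obese control. Of the 8 pancreas markers that the table holds, 3 were at 0 in all 6 libraries, and of 8 fat cell markers 2 were. Their part in the other results was not tested.

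All 13 mitochondrially encoded transcripts fell (median -0.58). COX1, a subunit of the terminal oxidase, was at 14606, 15282 and 14360.4 FPKM with orlistat, against 22694, 23301 and 21729 FPKM in the obese control (-0.61 ± 0.04). After quantile normalization, which sets the most abundant genes equal across libraries, COX1 and Alb showed no difference. ND1 (-0.68 ± 0.07), COX2 (-0.71 ± 0.08), ND5 (-0.64 ± 0.05) and CYTB (-0.45 ± 0.05) fell in step. Reads of the mitochondrial genome made up 5.50 to 5.97% of an orlistat library, 7.86 to 8.38% of an obese control library and 6.20 to 6.65% of a normal control library. This share can also move with RNA quality, and that was not tested. The transcripts are short (median 784 bases), and without the length trend 12 of 13 fell (median -0.41). Nuclear genes of oxidative phosphorylation fell in 18 and rose in 3 of 32 cases, with a median of -0.15. That median shrank to -0.04 without the length trend (10 lower and 6 higher) and turned to 0.02 as TPM (11 higher and 10 lower). Cox4i1 (-0.40 ± 0.02) and Ndufa4 (-0.38 ± 0.03) fell, and Uqcrc2 (0.44 ± 0.03) and Sdha (0.29 ± 0.02) rose.

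To see where the orlistat livers stood relative to healthy liver, they were tested against the normal control, and 5271 genes differed (44.1%), 2364 higher (19.8%) and 2907 lower (24.3%). Fatty acid synthesis genes had the lowest median of the 52 lists ( -1.40, 11 of 14 lower and 2 higher). Scd differed by -2.87 ± 0.02 and Acaca by -1.88 ± 0.04. The mevalonate pathway (median -0.77, 9 of 10 lower) and the sterol steps (median -0.59, 11 of 11 lower) were below healthy liver too. Sinusoidal endothelial markers (median 0.90, 11 of 11 higher) and Kupffer cell markers (median 0.70, 12 of 12 higher) stood above it. Mt2A (1.20 ± 0.04), Cdkn1a (1.47 ± 0.09) and Cxcl1 (1.69 ± 0.10) were higher with orlistat than in healthy liver.

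Against the mean of the 3 plantain doses, 3418 genes differed (28.6%), 1619 higher (13.6%) and 1799 lower (15.1%) with orlistat. Cyp7b1 was higher with orlistat than in every plantain library (1.31 ± 0.07, adjusted p = 2.04e-09), at 8.64 ± 0.369 FPKM with orlistat, against 3.06 ± 0.569, 2.77 ± 0.286 and 2.88 ± 0.103 FPKM at the low, medium and high dose. Insig1 (1.15 ± 0.03) and Noct (1.09 ± 0.05) shared that order. Tsc22d3, which encodes the glucocorticoid-induced leucine zipper GILZ, was at 51.4, 52.7 and 49.1 FPKM with orlistat, against 20.2 ± 1.77, 15.9 ± 0.931 and 24.4 ± 1.28 FPKM at the 3 doses (1.32 ± 0.05). Bcl6, a transcriptional repressor, was at 12.8, 13.4 and 12.6 FPKM with orlistat, against 5.05 ± 0.266, 6.86 ± 0.0811 and 2.70 ± 0.200 FPKM at the 3 doses (1.32 ± 0.04). Plppr1 (1.02 ± 0.09) was also higher, at a low level.

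Among the genes that were lower with orlistat than in every plantain library, Wfdc2, which encodes a secreted protein of the whey acidic protein family, was at 12.4, 10.4 and 12.8 FPKM with orlistat, against 65.8 ± 2.20, 33.4 ± 0.405 and 37.8 ± 2.40 FPKM at the 3 doses (-1.80 ± 0.05, adjusted p = 1.03e-12). Fgf21 differed by -1.56 ± 0.09, Cish by -1.22 ± 0.04 and Tff3 by -1.92 ± 0.14. The mitochondrial carrier gene Slc25a30 was at 5.15, 5.34 and 5.42 FPKM with orlistat, against 11.9 ± 0.643, 13.4 ± 0.532 and 15.1 ± 0.443 FPKM at the 3 doses (-1.19 ± 0.05). Ces2e, one of the largest rises over the obese control, did not differ from the plantain mean at this threshold (-0.03 ± 0.06, adjusted p = 0.758). That mean joins unlike doses. Ces2e was at 6.22 ± 0.358 FPKM with orlistat, against 6.66 ± 0.742, 11.3 ± 0.569 and 3.25 ± 0.135 FPKM at the low, medium and high dose. Chaperones of the unfolded protein response had 6 higher and 6 lower of 25 against the plantain mean (median -0.03), while amino acid breakdown enzymes had 15 higher and 8 lower of 35 (median 0.06), among them Sds (0.96 ± 0.02), Tat (0.80 ± 0.01) and Gpt (0.75 ± 0.03). The 3 comparisons share the orlistat libraries.

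**Figure D5:**
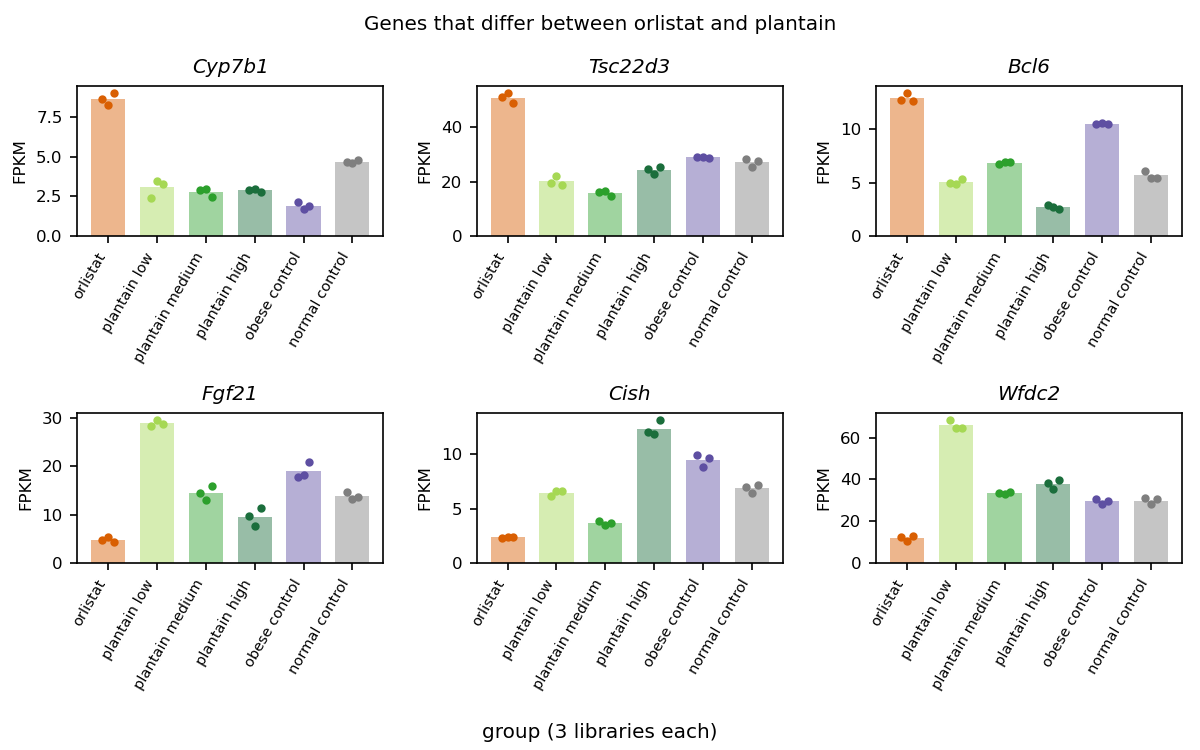
FPKM (vertical axes, from 0) of 6 genes in each library of the 6 groups, with the mean of 3 libraries as a bar. Cyp7b1, Tsc22d3 and Bcl6 are higher with orlistat than at any plantain dose, and Fgf21, Cish and Wfdc2 are lower. The Wfdc2 mean is 11.8 ± 1.23 FPKM with orlistat and 65.8 ± 2.20 FPKM at the low dose.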

How the data were processed

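The authors deposited 1 table of FPKM for 33657 genes and 18 libraries. Gene length, coordinates and symbol stand beside the values, per the file headers. Per the labels' protocols the libraries were made from 1 µg of RNA with an Illumina kit. CASAVA 1.7, Bowtie 0.12.2 and the mouse build mm8 are named in the submitters' processing notes, although the identifiers are those of the rat, and the build of the coordinates and the strand setting are not given in those sources.

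The whole reads behind each value were recovered from FPKM times length (100% of values whole within 0.001) and totalled 16.6 to 26.2 megareads per library. Values were taken as log2(FPKM + 1) and fitted with limma 3.58.1 (R 4.3.3) in 1 model of the 6 groups, using a mean-variance trend without covariates. Tests were two-sided, with Benjamini-Hochberg adjustment over all genes tested and a threshold of 0.05. The procedure was tested on simulated data. For 1 gene, 3 libraries against 3 allow an exact permutation p of 0.1 at the smallest. No library pair differed by less than sampling noise. Members and the 52 gene lists were chosen with earlier results of these data known, so lists are described by counts and medians, with no test. Named genes were the 12 largest rises and falls with groups apart and a symbol of their own, at most 6 genes per list (those with the smallest p), the 6 most abundant genes called in each direction, and the 6 largest differences from plantain in each direction. Clec4g, Herpud1 and Arntl were named after their values were seen, and the other genes with printed sites or an E-box for their promoters. Some named genes are not reported here. Promoter sequences are from RefSeq (GRCr8). Symbols were matched to promoters and lists by name, and 858 of 925 listed symbols were in the table. Alternatives were other pseudocounts (0.1 and 0.5), no filter, TPM, quantile normalization, recovered-read scaling, voom on recovered reads, a fit of the compared groups alone, no trend, a replicate block, leaving out each library and removal of the length trend.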

Additional observations from a re-analysis of the deposited data

How the results depend on the processing

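The scale set the balance of rises and falls. Against the obese control, 4989 genes were higher and 1566 lower as TPM, 4095 and 2137 with voom on recovered reads, 3256 and 2853 after quantile normalization and 2845 and 2878 in a fit of these groups alone. Against the plantain mean the counts were 2669 higher and 1054 lower as TPM and 2432 and 1143 with voom. Leaving out 1 library gave 2845 to 2919 higher and 2720 to 2779 lower against the obese control, 2081 to 2134 and 2523 to 2613 against the normal control, and 1203 to 1252 and 1437 to 1473 against the plantain mean. The removal of the length trend was chosen after seeing the data.

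Some medians and genes changed direction. Of the 52 lists, 31 had a median below 0, of which 17 turned positive as TPM (up to 0.164), 11 after quantile normalization, 11 on recovered reads and 11 with voom. Without the length trend 4 turned positive and 3 others negative. As TPM the medians were, among others, 0.062 for peroxisomal oxidation, 0.027 for the growth hormone list, 0.017 for nuclear oxidative phosphorylation and 0.002 for hepatocyte markers (0.008 after quantile normalization). Quantile normalization turned F10 to 0.009, Fga to 0.1082, Hpx to 0.0423, Scp2 to 0.012, Serpina1 to 0.0134 and Ttr to 0.0333, and TPM turned Srd5a1 to 0.0188. The cause was not tested. Of the values of named genes recomputed under an alternative, 3976 kept their direction and their side of the threshold, 29 lost the call and 7 turned. Most of these genes were chosen for large differences or small p-values in the same data. Their stability follows in part from that choice and does not extend to the other genes or the lists.

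The labels do not say what libraries with the same replicate number share. Deviations of orlistat and obese control libraries with the same number correlated between -0.092 and 0.003. With 3 libraries per group, such correlations cannot exclude a shared factor. With the number as a block, 3063 genes were higher and 3013 lower against the obese control, 2338 and 2872 against the normal control, and 1576 and 1761 against the plantain mean.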

Other observations

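Among genes marked as transcription factors in the deposited annotation, 179 higher and 163 lower of 714 tested were found with orlistat against the obese control (median 0.00). Over all genes the shares were 26.2% higher and 25.6% lower. Counts of some small families are given beside those shares. The ETS family had 9 of 15 members higher and 1 lower (median 0.14). ARID chromatin factors had 4 of 6 higher and 0 lower, and STAT factors 4 of 6 higher and 2 lower. Nuclear receptors of the THR-like family, which hold the thyroid hormone, retinoid and lipid receptors, had 3 of 16 higher and 7 lower (median -0.04), and cold shock domain proteins 1 of 5 higher and 4 lower. The families were singled out after their counts were seen, and whether they differ from all genes was not tested.

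Small RNA genes had medians below that of all genes, while the share called lower was no larger than in the class of shortest genes. Of 149 small nucleolar RNA genes 23 (15.4%) were lower with orlistat and 2 higher (median -0.41), and of 107 microRNA genes 29 (27.1%) were lower and 4 higher (median -0.40). These genes are short, and the class of shortest genes had a median of -0.19 with 33.1% called lower, beside 25.6% of all genes. Of 135 long intergenic RNA genes 44 were lower and 24 higher (median -0.09).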
